A study of Mus musculus with 36 samples.

Results

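Of the 17716 genes listed in both count tables of this mouse lung study (18691 in either), 9 genes of the S phase checkpoint and of chromatin assembly were followed across the 6 treatment groups. They were chosen by symbol, and all 9 were found in both tables: Chek1, Chek2, Clspn, Dtl, Ticrr, Uhrf1, Chaf1b, Asf1b and 2810417H13Rik, which is the tables' symbol of Pclaf. All but Asf1b also belong to a list that the study picked from these same samples for Corexit 9527, so their direction in that group is not independent evidence.

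RNA was sequenced from the lungs of 36 wild-type C57BL/6 mice, 3 of each sex in each group. The groups received saline (the control), MC252 crude oil, the oil dispersants Corexit 9500 or Corexit 9527 alone, or the oil mixed with either dispersant (9500+oil, 9527+oil). Every mouse was dosed on days 0, 7 and 13 with the agent at 0.1 of the accommodated fraction, and killed on day 14. The labels call this fraction water-accommodated and the study's methods saline-accommodated; by those methods only the aqueous phase was used for oil alone, while the preparations with dispersant, which hardly separated, were given as mixed. The methods give 50 µL per dose by oropharyngeal aspiration, while the deposited design text names intratracheal instillation as the route. The methods also give mice bought at 7 weeks of age and kept for 1 week before use.

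In S phase, cells copy their DNA and pack the new strands into chromatin. Stalled replication forks activate the kinase ATR, which switches on the kinase CHK1 through the mediator claspin, while double-strand breaks act mainly through ATM and the kinase CHK2. Most of the genes for these proteins are transcribed in cycling cells under E2F factors, and few cells of a resting adult lung are in cycle. In whole lung, fewer cells of a kind and less RNA per cell cannot be told apart.

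Libraries held from 17501180 to 30011557 counts. In 4 female libraries 20.7 to 45.1% of the counts were mitochondrial, against 5.27 to 11.3% in the other 32. These were saline mouse 3, oil mouse 6, Corexit 9527 mouse 11 and 9500+oil mouse 14. Their log2 ratio of counts from GC-rich to GC-poor genes, relative to the median library, ran from -3.06 to -2.12 and was lowest in saline mouse 3. In the other 32 it ran from -0.815 to 0.291. In saline mouse 3, 19.6% of 14987 expressed genes were at 0, among them Chek2, Clspn, Dtl and Ticrr; a count of 0 there allows a level of up to 0.349 CPM (counts scaled to a common library size), for counting error alone. Ticrr was also at 0 in female Corexit 9500 mouse 7, which allows up to 0.152 CPM. CPM were normalised within each table, so levels were compared within a sex. Most counts of members to which these libraries contribute are also given without them. The gene lists, cell markers, likeness ranking and the values of Mki67 and Top2a are given only with them.

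Stretches of 120 bases just before the start site are shown for the 5 members that passed the test between 9527+oil and Corexit 9527, and for Chek2, which did not pass and followed the others least in male mice. They come from RefSeq on GRCm38.p6, in the direction of transcription. Capitals mark, where they lie wholly in the stretch, E2F-like forms (TTTCCCGC, TTTGGCGC, TTTCGCGC, TTTGCCGC, GCGGGAA or GGCGGGA) and the CCAAT box, on either strand.
2810417H13Rik (chr9:65890203-65890322, plus strand): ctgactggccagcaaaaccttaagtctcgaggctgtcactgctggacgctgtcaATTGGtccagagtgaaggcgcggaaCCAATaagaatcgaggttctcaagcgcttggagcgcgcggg
Dtl (chr1:191575545-191575664, minus strand): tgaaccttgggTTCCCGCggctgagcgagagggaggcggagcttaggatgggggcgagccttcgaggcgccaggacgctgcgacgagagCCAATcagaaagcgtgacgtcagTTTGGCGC
Clspn (chr4:126556860-126556979, plus strand): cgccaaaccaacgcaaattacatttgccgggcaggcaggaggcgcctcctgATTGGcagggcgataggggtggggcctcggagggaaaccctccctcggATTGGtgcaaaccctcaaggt
Uhrf1, the first of 2 listed promoters (chr17:56303217-56303336, plus strand): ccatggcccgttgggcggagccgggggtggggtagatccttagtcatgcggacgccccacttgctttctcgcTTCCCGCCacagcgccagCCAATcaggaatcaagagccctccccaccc
Chaf1b (chr16:93883781-93883900, plus strand): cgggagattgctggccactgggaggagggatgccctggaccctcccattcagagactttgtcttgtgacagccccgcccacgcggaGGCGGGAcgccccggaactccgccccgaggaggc
Chek2 (chr5:110839863-110839982, plus strand): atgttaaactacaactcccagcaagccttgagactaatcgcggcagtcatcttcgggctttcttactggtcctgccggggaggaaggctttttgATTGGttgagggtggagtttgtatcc

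All 9 members matched a RefSeq promoter, taken as 250 bases before to 50 after the start site. One of the first 4 E2F-like forms lay in a promoter of 5 of the 9 members (Chek2, Clspn, Dtl, Uhrf1 and 2810417H13Rik), and in 2.28% of 32544 mouse promoters. Uhrf1 held such a form only in its second listed promoter, which is not shown, while the share counts each promoter singly. GCGGGAA and GGCGGGA were added after the members' promoters had been seen; with them the count was 7 members, and 14.3% of all promoters. The 6 forms overlap one another. CCAAT was found in 7 members and in 37.4% of all promoters. Of the other motif searched, the cell cycle homology region (TTTGAA or TTCGAA), only Asf1b held a copy (TTTGAA), a form found in 17.8% of all promoters, and TTCGAA in 1.56%. A match is a description of letters and not of a bound site.

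The members stood highest with Corexit 9527. In male mice all 9 had their highest group mean there and 8 their lowest with saline. In female mice 7 were highest with Corexit 9527 and 2, Chek2 and Asf1b, with Corexit 9500, while 6 were lowest with saline. Without the 4 libraries 1 member, Dtl, was lowest with saline, 4 with 9527+oil, 3 with 9500+oil and 1 with oil. In those 14 mice 8 members were highest with Corexit 9527, and Chek2 with Corexit 9500. How many of all genes had their highest or lowest mean in each group was not counted. Neighbouring groups in this order mostly overlapped: of the 45 neighbouring pairs of group means in each sex, the 3 mice of one group lay apart from those of the next in 1 pair.

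**Figure D1:**
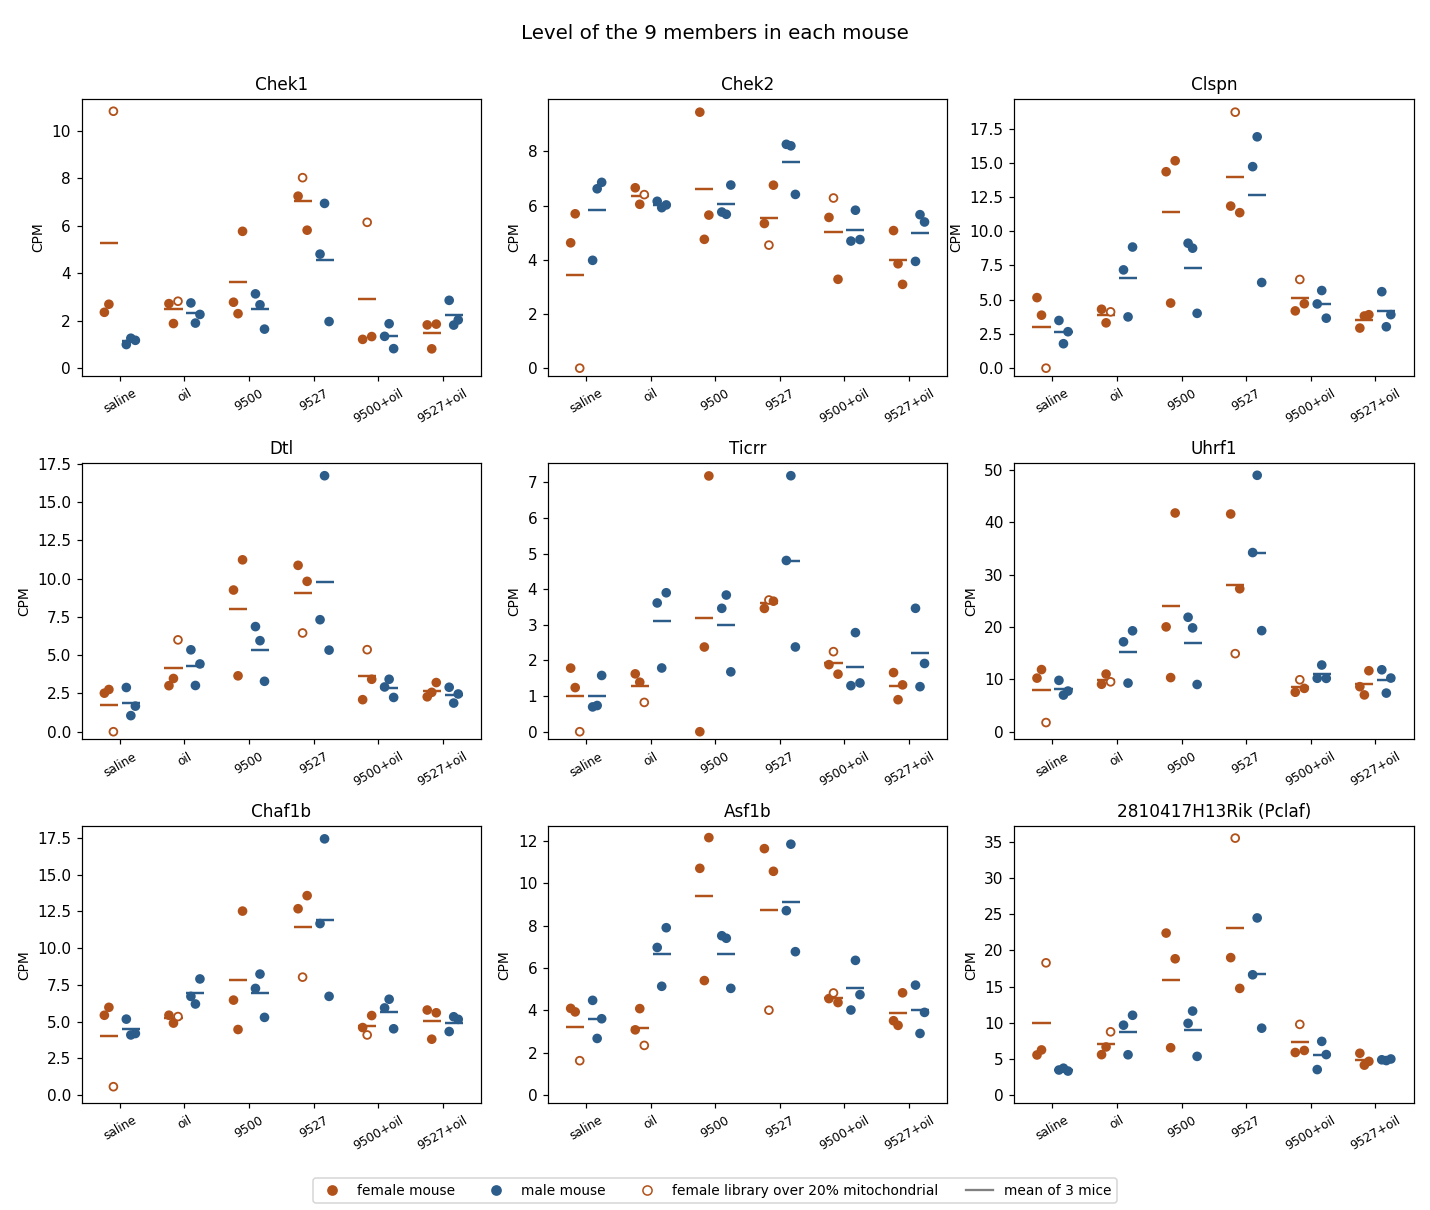
Level of each member in CPM (linear axis) in each of the 36 mice by treatment group; points are mice, bars are means of 3, and open points are the 4 female libraries over 20% mitochondrial. The Corexit 9527 mice stand highest for most members, and the mice given dispersant with oil lie near the saline mice.

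Chek1 (ENSMUSG00000032113, chromosome 9, 36708482 to 36727065, GRCm38) encodes the kinase that slows replication and holds back mitosis when forks stall. In male mice it was at 0.995, 1.26 and 1.17 CPM with saline and 4.81, 6.95 and 1.97 CPM with Corexit 9527. In female mice it was at 2.35, 2.69 and 10.8 CPM with saline and 7.25, 8.03 and 5.82 CPM with Corexit 9527. The male groups did not overlap, and the female groups overlapped only through saline mouse 3. With 9527+oil the values were 2.86, 1.81 and 2.03 CPM in male and 1.82, 0.814 and 1.86 CPM in female mice, so that every female 9527+oil mouse lay below every female saline mouse.

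Chek2 (ENSMUSG00000029521, chromosome 5, 110839979 to 110874145), the kinase of the double-strand break arm, had the smallest fold change of the members with Corexit 9527 over both sexes and in male mice; in female mice that of Chek1 was smaller, at 0.39 ± 0.76 against 0.68 ± 1.36 on the log2 scale. Male saline mice had 3.98, 6.62 and 6.86 CPM and male Corexit 9527 mice 8.26, 8.21 and 6.41 CPM. Female saline mice had 4.63, 5.70 and 0 CPM and female Corexit 9527 mice 5.34, 4.54 and 6.75 CPM. The groups overlapped in both sexes.

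Clspn (ENSMUSG00000042489, chromosome 4, 126556935 to 126593903) encodes claspin, which hands the signal from ATR to CHK1. It was at 3.48, 1.79 and 2.66 CPM in male saline mice and at 14.7, 16.9 and 6.26 CPM in male Corexit 9527 mice. In female mice it was at 5.15, 3.87 and 0 CPM with saline and at 11.8, 18.7 and 11.4 CPM with Corexit 9527. Neither sex overlapped. With 9527+oil it was at 5.59, 3.02 and 3.91 CPM in male and 2.93, 3.81 and 3.90 CPM in female mice, below every Corexit 9527 mouse of the sex.

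Dtl (ENSMUSG00000037474, chromosome 1, 191537356 to 191575544) encodes the adaptor with which the CRL4 ubiquitin ligase destroys CDT1 and p21 on PCNA-bound DNA. Male mice had 2.89, 1.05 and 1.67 CPM with saline and 7.31, 16.7 and 5.33 CPM with Corexit 9527. Female mice had 2.52, 2.76 and 0 CPM with saline and 10.9, 6.45 and 9.81 CPM with Corexit 9527. Again no treated mouse overlapped a saline mouse of its sex. The 9527+oil mice were back in the saline range or near it, at 2.90, 1.87 and 2.46 CPM in males and 2.28, 2.57 and 3.21 CPM in females.

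Ticrr (ENSMUSG00000046591, chromosome 7, 79660196 to 79698148), which loads CDC45 when origins fire, was the least abundant by counts, with a median of 42 per library. It was at 0.697, 0.736 and 1.58 CPM in male saline and 4.81, 7.19 and 2.38 CPM in male Corexit 9527 mice. In female mice it was at 1.79, 1.24 and 0 CPM with saline and 3.46, 3.70 and 3.67 CPM with Corexit 9527. The groups did not overlap. Ticrr shares its locus with Kif7 on the opposite strand, as 2810417H13Rik does with Trip4; the strand setting of the counting is not given in the sources used here, so reads of the overlaps are uncertain.

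Uhrf1 (ENSMUSG00000001228, chromosome 17, 56303321 to 56323486) brings the methyltransferase DNMT1 to newly copied DNA. In male mice it was at 9.80, 6.99 and 7.76 CPM with saline and 34.2, 49 and 19.3 CPM with Corexit 9527. In female mice it was at 10.2, 11.9 and 1.75 CPM with saline and 41.6, 14.9 and 27.3 CPM with Corexit 9527. The lowest treated mouse stood above the highest saline mouse in each sex. With 9527+oil it was at 11.8, 7.37 and 10.2 CPM in male and 8.60, 7.02 and 11.6 CPM in female mice.

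Chaf1b (ENSMUSG00000022945, chromosome 16, 93883901 to 93906115) and Asf1b (ENSMUSG00000005470, chromosome 8, 83955507 to 83970197) encode chaperones that place histones H3 and H4 on new DNA. Chaf1b was at 5.17, 4.10 and 4.20 CPM in male saline and 11.7, 17.4 and 6.72 CPM in male Corexit 9527 mice, and at 5.44, 5.98 and 0.582 against 12.7, 8.03 and 13.6 CPM in female mice. Asf1b was at 4.48, 2.68 and 3.61 against 8.71, 11.8 and 6.78 CPM in male mice, and at 4.10, 3.93 and 1.63 against 11.6, 4.01 and 10.6 CPM in female mice. Chaf1b did not overlap in either sex, and Asf1b overlapped in female mice through Corexit 9527 mouse 11. With 9527+oil Chaf1b was at 4.33, 5.34 and 5.16 CPM in male and 5.79, 3.81 and 5.61 CPM in female mice, below every Corexit 9527 mouse of the sex.

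2810417H13Rik (ENSMUSG00000040204, chromosome 9, 65890237 to 65903266) encodes the PCNA-associated factor PCLAF. It was at 3.48, 3.73 and 3.34 CPM in male saline and 16.6, 24.5 and 9.26 CPM in male Corexit 9527 mice. In female mice it was at 5.56, 6.26 and 18.3 CPM with saline and 19.0, 35.5 and 14.8 CPM with Corexit 9527. The male groups lay apart and the female groups overlapped through saline mouse 3. With 9527+oil it was at 4.89, 4.79 and 5.00 CPM in male and 5.79, 4.15 and 4.68 CPM in female mice, again below every Corexit 9527 mouse of the sex. Female saline mouse 3 was the highest of the female saline mice for Chek1 and 2810417H13Rik, whose transcripts have a GC content of 42.2 and 40.9%. It was the lowest for the other 7, as for 59.3% of all genes, and Dtl, at 44.0%, was at 0 there.

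The question of the first comparison was what Corexit 9527 alone did relative to saline. Over both sexes all 9 members were higher, as were 52.1% of all genes, by a median of 1.72 on the log2 scale against 0.01 for all genes, from 0.53 ± 0.62 (SE) for Chek2 to 2.35 ± 0.64 for Dtl. In the quasi-likelihood test of edgeR, with p-values adjusted by Benjamini-Hochberg over 15107 genes, none of the members passed 0.05, where 0.0331% of the genes did, and the lowest adjusted p was 0.360, for Uhrf1. At an unadjusted p under 0.05 there were 8 members, all but Chek2, where 2.27% of all genes were higher at that level. For 5 members (Clspn, Dtl, Ticrr, Uhrf1 and Chaf1b) the 3 treated mice of each sex all exceeded the 3 saline mice, as for 0.96% of all genes.

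Without the 4 female libraries, 8 of the 9 members rose, where 2.25% of all genes passed in either direction. Uhrf1 rose by 1.89 ± 0.24 (adjusted p = 0.00420 in edgeR), 2810417H13Rik by 1.95 ± 0.25, Asf1b by 1.40 ± 0.19, Dtl by 2.21 ± 0.34 and Clspn by 1.88 ± 0.30 on the log2 scale. Chaf1b rose by 1.33 ± 0.22, Chek1 by 1.73 ± 0.31 and Ticrr by 1.82 ± 0.37. Chek2 stood 0.33 ± 0.18 higher, with an adjusted p of 0.433. Leaving out female saline mouse 3 alone gave 1 call, where 0.0588% of all genes passed.

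In male mice alone 8 members were at an unadjusted p under 0.05 and the same 8 did not overlap, where 7.96 and 10.5% of all genes did so. Their log2 fold changes ran from 1.34 ± 0.28 for Asf1b to 2.39 ± 0.50 for Dtl, with the lowest adjusted p of edgeR at 0.0558 for Uhrf1 and 2810417H13Rik, where 0.114% of all genes passed 0.05. Male Corexit 9527 mouse 12 was the lowest of its group for all 9 members, as for 37.2% of all genes. Without that mouse 8 members passed, where 1.39% of all genes did. In female mice alone the 9 members were also higher, as were 54.0% of all genes, by a median of 1.51, but none reached an unadjusted p of 0.05, as 0.267% of all genes did, and 5 did not overlap where 2.92% of all genes were so. Without the libraries of saline mouse 3 and Corexit 9527 mouse 11, all members but Chek2 were at an unadjusted p under 0.05 in female mice, where 4.98% of all genes were, with a median of 1.37 and a lowest adjusted p of 0.318 in edgeR. Without saline mouse 3 alone the count was 5, where 1.02% of all genes were at that level, and without Corexit 9527 mouse 11 alone it was 2, where 0.325% were.

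With Corexit 9500 alone the members also stood higher than with saline. Over both sexes all 9 members were higher, as were 53.7% of all genes, by a median of 1.21, and 5 (Clspn, Dtl, Uhrf1, Asf1b and 2810417H13Rik) were at an unadjusted p under 0.05, where 1.29% of all genes were higher at that level. Asf1b stood 1.21 ± 0.31 and Dtl 1.83 ± 0.63 higher, and for these 2 genes treated and saline mice did not overlap within a sex, where 0.657% of all genes were so. No gene passed the adjusted test (0.0%), and the lowest adjusted p of a member in edgeR was 0.970. Without the 4 libraries 7 members, the same 5 with Chek1 and Chaf1b, were at an unadjusted p under 0.05, where 5.65% of all genes were, with a median of 1.08 and a lowest adjusted p of 0.617; Chek1 moved from 0.27 to 0.84 ± 0.30.

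In male mice 8 members were at an unadjusted p under 0.05 with Corexit 9500, where 4.0% of all genes were higher at that level, and the median was 1.11. In female mice the median was 1.54, slightly above the 1.51 of female Corexit 9527 mice, with Chek1 at -0.55 ± 0.81 (0.52 ± 0.54 without saline mouse 3) and 1 member, Asf1b, at an unadjusted p under 0.05, where 0.364% of all genes were. Without saline mouse 3 alone the female median was 1.12 for Corexit 9500 and 1.34 for Corexit 9527, and 4 members with Corexit 9500 were at that level, where 1.64% of all genes were. Set directly beside each other, Corexit 9527 exceeded Corexit 9500 by a median of 0.54 on the log2 scale, with 2 members (Chek1 and Chaf1b) at an unadjusted p under 0.05, where 2.1% of all genes were higher at that level, and none past the adjusted threshold. The estimates ran from 0.04 to 0.92. All of these comparisons with saline share the same 6 saline mice.

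With oil alone the members stood higher in male mice than with saline. In male mice 8 members were at an unadjusted p under 0.05, where 5.75% of all genes were higher at that level. 2810417H13Rik was at 9.67, 5.59 and 11.0 CPM against 3.48, 3.73 and 3.34 CPM with saline, and stood 1.32 ± 0.26 higher (adjusted p = 0.246 in edgeR), the lowest adjusted p of the members. Chek2 was at 6.16, 5.92 and 6.03 CPM, within the saline range. Male oil mouse 5 was the lowest of its group for all 9 members, as for 37.9% of all genes. In female mice no member was at an unadjusted p under 0.05, where 0.108% of all genes were, and the values of 2810417H13Rik, at 5.60, 6.66 and 8.76 CPM, overlapped those of saline. By the deposited design text each sex was treated on its own, so sex and treatment run cannot be told apart. The difference between the sexes was itself tested: 2 members, Chek1 and 2810417H13Rik, were at an unadjusted p under 0.05, where 1.07% of all genes were higher in males at that level, and none passed the adjusted threshold. These are the 2 members for which female saline mouse 3 was the highest of its group. Without the 4 libraries, or without saline mouse 3 alone, 7 members were at that level, where 5.98 and 5.6% of all genes were, and leaving out any other mouse gave 1 or 2. Over both sexes 0 members were at an unadjusted p under 0.05 with oil, where 0.435% of all genes were, and 3 (Dtl, Ticrr and 2810417H13Rik) without the 4 libraries, where 2.52% were.

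The mixtures with oil lay close to saline. Over both sexes no member was at an unadjusted p under 0.05 with 9527+oil or 9500+oil, where 2.94 and 0.391% of all genes were. The median log2 fold change of the members was 0.22 with 9527+oil and 0.28 with 9500+oil. Without the 4 libraries the medians were 0.13 and 0.36, again with no member at that level, where 10.6 and 7.1% of all genes were. Leaving out 1 mouse gave medians of 0.13 to 0.39 with 9527+oil and 0.22 to 0.46 with 9500+oil, and requiring at least 10 counts in every mouse, which left 4 members, gave -0.05 with 9527+oil. Without female saline mouse 3 alone 2 members were at an unadjusted p under 0.05 with 9500+oil, where 1.78% of all genes were. In male mice alone 2 members with 9527+oil and 3 with 9500+oil were higher at an unadjusted p under 0.05, where 3.54 and 5.19% of all genes were. Both counts fell to 0 on leaving out 1 mouse, 9527+oil mouse 16 for the first and saline mouse 2 or 9500+oil mouse 14 for the second. In female mice alone no member was at that level with either mixture, and the medians were 0.22 and 0.48. Without the 4 libraries the female medians were -0.27 and -0.02. Then 0 members with 9527+oil and 1 with 9500+oil (Chek1, lower at -0.98) were at that level, where 12.3 and 1.24% of all genes were.

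The response of Chek1 to 9527+oil differed between the sexes at an unadjusted p of 0.00832 in edgeR (male minus female 2.77 ± 0.85 on the log2 scale), where 2.13% of all genes were higher in males at an unadjusted p under 0.05; its adjusted p was 0.948. The log2 fold change was 0.97 in male and -1.83 in female mice, and -0.74 ± 0.39 in female mice without saline mouse 3, whose Chek1 level of 10.8 CPM was the highest of the female table. Without that library the difference was 1.71 ± 0.51 (unadjusted p = 0.00634, adjusted p = 0.732 in edgeR). 2810417H13Rik was the other member at an unadjusted p under 0.05, at 1.51 ± 0.60, and 0.75 ± 0.26 without saline mouse 3. Without that mouse Clspn passed this level too, making 3 members, where 6.73% of all genes did.

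Members fell in the mice given oil with Corexit 9527. In 9527+oil against Corexit 9527 alone, over both sexes, 5 of the 9 passed an adjusted p of 0.05 and all 5 were lower, where 0.579% of all genes passed in either direction. 2810417H13Rik had a log2 fold change of -2.0 ± 0.28 (adjusted p = 0.0223 in edgeR), while Dtl fell by 1.88 ± 0.29, Clspn by 1.78 ± 0.27, Uhrf1 by 1.70 ± 0.28 and Chaf1b by 1.22 ± 0.24 on the log2 scale. These same 5 did not overlap within either sex, as 3.43% of all genes did not. The other 4 had log2 fold changes of -1.62 ± 0.37 (Chek1), -1.28 ± 0.32 (Ticrr), -1.17 ± 0.27 (Asf1b) and -0.53 ± 0.19 (Chek2), each at an unadjusted p under 0.05, where 8.76% of all genes were lower at that level.

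Of the 4 female libraries only that of Corexit 9527 mouse 11 entered this comparison. Without it 8 members fell, all but Chek2 (adjusted p = 0.0501 in edgeR), where 6.82% of all genes passed. Leaving out 1 mouse gave between 0 and 8 calls, with 0 for 9 of the 12 mice. It gave 1 without female Corexit 9527 mouse 12, 8 without female Corexit 9527 mouse 11 and 6 without male Corexit 9527 mouse 12, where 0.085, 6.82 and 0.851% of all genes passed. The fit with 8 calls is the same as the one without the high-mitochondrial libraries. The median log2 fold change stayed between -1.41 and -1.82 throughout. In each sex alone, an analysis added after the result had been seen, none passed and the medians were -1.28 in male and -1.62 in female mice.

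For Corexit 9500 the same comparison gave smaller differences. In 9500+oil against Corexit 9500 all 9 members were lower, where 53.1% of all genes were higher, with a median log2 fold change of -0.74, and 5 were at an unadjusted p under 0.05, where 1.37% of all genes were lower at that level. The estimates ran from -0.32 to -1.05. None passed the adjusted test, and the lowest adjusted p of a member in edgeR was 0.999. Without the 4 libraries 6 members were at an unadjusted p under 0.05, where 3.28% of all genes were, with a median of -0.96.

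**Figure D2:**
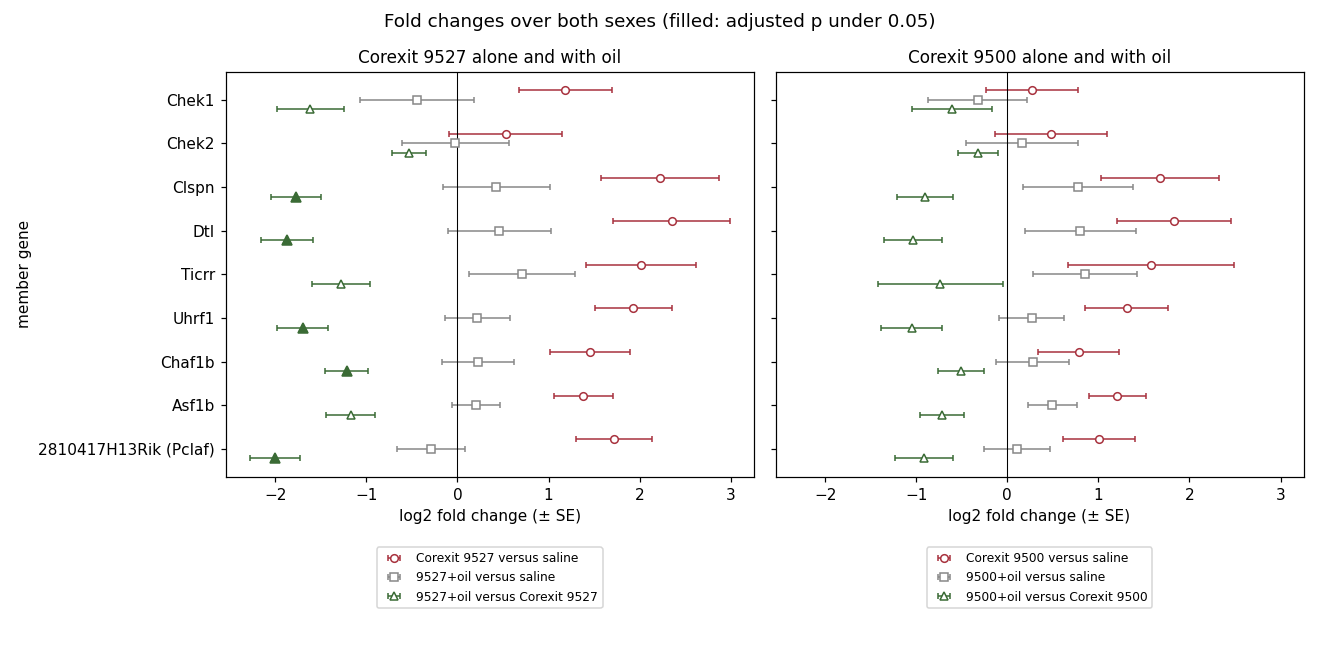
Log2 fold changes (points, with bars of ± 1 SE) of the 9 members over both sexes, for Corexit 9527 on the left and Corexit 9500 on the right; filled points passed an adjusted p of 0.05. The 5 filled points, from 2810417H13Rik at -2.0 to Chaf1b at -1.22, all belong to 9527+oil against Corexit 9527.

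Within a treatment group, male mice high in one member tended to be high in the others, Chek2 apart. In the 18 male mice the deviations of log2 CPM from the group mean had a median Pearson r of 0.772 over the 28 pairs without Chek2 (0.558 to 0.957), and of 0.007 over the 8 pairs with it. In the 14 female mice outside the 4 libraries the medians were 0.713 (-0.364 to 0.899) and 0.038. The median r of Ticrr with the others was -0.123 there and 0.788 in male mice. These 14 include female Corexit 9500 mouse 7, where Ticrr was at 0, against 2.38 and 7.18 CPM in the other mice of its group. Over all 18 female mice the medians were 0.491 and 0.666, and Chek1 (-0.281) and 2810417H13Rik (-0.348), the members high in saline mouse 3, had the lowest medians. These mice share their library and its depth across genes, so the values are descriptive. Male Corexit 9527 mouse 11 was the highest of its group for 8 members, male 9500+oil mouse 14 for all 9, and male Corexit 9500 mouse 9 the lowest for 8. Of all genes 36.4, 33.7 and 35.4% were so.

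Outside the members, the genes whose log2 CPM followed their mean most closely were Rrm2, a subunit of ribonucleotide reductase, Birc5 (survivin), the helicase subunit Mcm6, the spindle gene Spag5 and the kinase Melk. The lower of the r of the 2 tables, each over 18 mice, was 0.957 for Rrm2, 0.938 for Birc5, 0.935 for Mcm6, 0.920 for Spag5 and 0.913 for Melk, among 15279 genes. The female r includes saline mouse 3, whose mean log2 CPM of the members was -0.602, and the ranking was not repeated without it. In female mice Chek1 and 2810417H13Rik followed the mean of the other members least, at r of 0.058 and 0.244. Mki67 and Top2a, general markers of cycling cells, were measured beside them. Mki67 was at 42.4, 26.2 and 37.6 CPM in male saline and 121, 146 and 64.1 CPM in male Corexit 9527 mice. In female mice it was at 44.4, 28.7 and 96.5 CPM with saline and 90.5, 152 and 103 CPM with Corexit 9527, overlapping through saline mouse 3. It fell by 1.48 ± 0.24 in 9527+oil against Corexit 9527 (adjusted p = 0.0262 in edgeR). Top2a fell by 1.55 ± 0.24 (adjusted p = 0.0260).

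**Figure D3:**
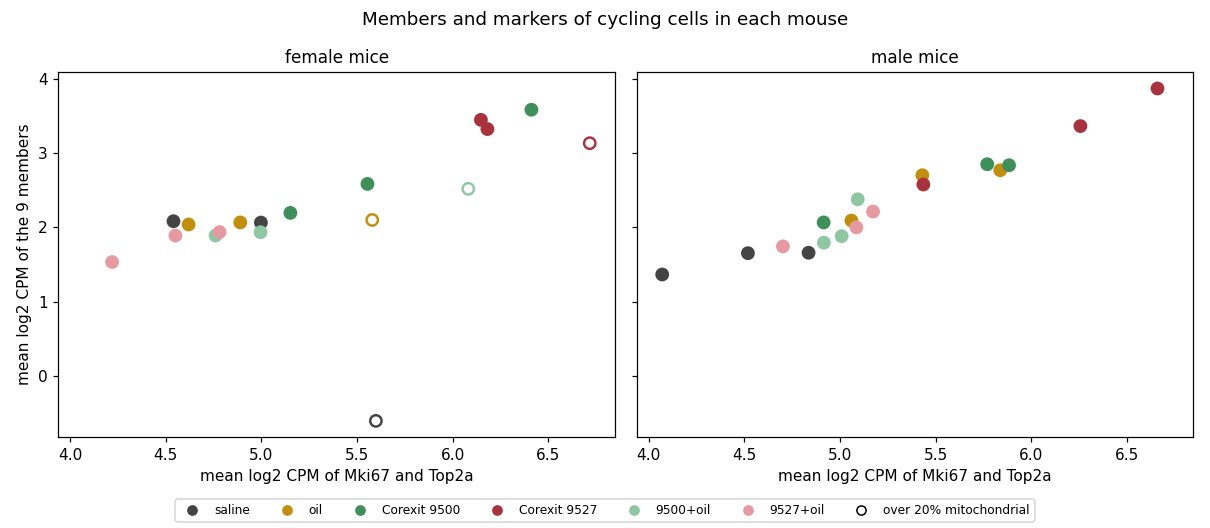
Mean log2 CPM of the 9 members (vertical) against that of Mki67 and Top2a (horizontal) in each of 18 female and 18 male mice, coloured by treatment; open points are the 4 female libraries over 20% mitochondrial. Mice high in one are high in the other, and female saline mouse 3 lies far below the rest.

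Genes of the members' pathways were counted by list. The counts stand against 2.27% of all genes higher with Corexit 9527 at an unadjusted p under 0.05, and 8.76% lower in 9527+oil against Corexit 9527, where 0.579% passed the adjusted test in either direction. In the ATR-CHK1 list, 2 of 18 genes were higher with Corexit 9527 at an unadjusted p under 0.05 and none passed the adjusted test, with a median log2 fold change of 0.25. Topbp1, the activator of ATR, stood 0.52 ± 0.16 higher, the mitotic phosphatase Cdc25c 2.03 ± 0.72 higher and Atrip, the partner of ATR, at -0.25 ± 0.20. In the ATM-CHK2 list 1 of 13 genes was higher at that level, with a median of 0.09; Brca1 stood at 1.35 ± 0.41, the ubiquitin ligase Rnf8 at -0.29 ± 0.18 and the phosphatase Ppm1d at 0.23 ± 0.23. Of the 10 genes of the CRL4-DTL ligase and its substrates 1 was higher at that level, with a median of 0.14; Pcna stood at 0.51 ± 0.20, E2f1 at 0.53 ± 0.37 and Cdt1 at 1.02 ± 0.93. None of these 41 genes passed the adjusted test in 9527+oil against Corexit 9527, where 7 of 18, 2 of 13 and 1 of 10 were lower at an unadjusted p under 0.05. At that level 1 of the 18 was higher there, Atrip, by 0.43 ± 0.14.

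Of the origin firing partners of Ticrr, all 11 had positive estimates. With Corexit 9527, 4 of 11 were higher at an unadjusted p under 0.05 and none passed the adjusted test, with a median of 0.82, among them the kinase Cdc7 at 0.83 ± 0.20, its activator Dbf4 at 0.82 ± 0.21 and the licensing inhibitor Gmnn at 0.82 ± 0.26. In 9527+oil against Corexit 9527, 10 of 11 were lower at that level and 1 passed the adjusted test, Cdc45, which fell by 1.48 ± 0.24 and is named because it passed. Of the 10 genes of maintenance DNA methylation, 9 had positive estimates with Corexit 9527, 2 were higher at an unadjusted p under 0.05 and none passed the adjusted test; Lig1, the ligase of replication, stood at 0.94 ± 0.22, the remodeller Hells at 1.48 ± 0.51 and Dnmt1 at 0.56 ± 0.30. Hells fell by 2.03 ± 0.35 and Lig1 by 0.95 ± 0.17 in 9527+oil against Corexit 9527, the 2 of 10 that passed. Of 18 histone chaperones 14 had positive estimates with Corexit 9527, with a median of 0.12, 2 were higher at an unadjusted p under 0.05 and none passed the adjusted test: Chaf1a, the partner of Chaf1b, stood at 1.01 ± 0.33, the fork protein Mms22l at 1.48 ± 0.60 and Rbbp7 at 0.34 ± 0.16. Of these Mms22l fell in 9527+oil against Corexit 9527, by 1.38 ± 0.24, the only chaperone of the list to pass. At an unadjusted p under 0.05, 8 of the 18 were lower there and 1 higher.

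All 10 other genes of cycling cells were higher with Corexit 9527 at an unadjusted p under 0.05, with a median of 1.49, though none passed the adjusted test. In 9527+oil against Corexit 9527, 9 of the 10 fell. In male mice alone 2 of all genes passed in that comparison and in female mice alone 0, so most of the list calls did not hold within a sex. Top2a stood at 1.59 ± 0.24 with Corexit 9527, the cyclin Ccna2 at 1.67 ± 0.29 and the kinase Cdk1 at 1.56 ± 0.29, and the last 2 fell by 1.69 ± 0.25 and 1.78 ± 0.27 in 9527+oil against Corexit 9527.

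Markers of other cells were measured beside the members. The summed level of the 5 alveolar macrophage markers ran from 478 to 548 CPM in female saline and from 984 to 1957 CPM in female Corexit 9527 mice, and from 484 to 640 and 624 to 1344 CPM in male mice. With 9527+oil it ran from 303 to 349 CPM in female and 340 to 629 CPM in male mice. Of these 5 markers 2 were higher with Corexit 9527 and 2 lower in 9527+oil against Corexit 9527 at an unadjusted p under 0.05, none of the 5 was at 0 in any mouse, and their part in the members' levels was not tested. The macrophage sums of saline and Corexit 9527 mice lay apart in female mice and overlapped in male mice. The summed level of the 4 monocyte markers lay apart in both sexes, at 461 to 764 CPM with saline against 772 to 1051 CPM with Corexit 9527 in female and 1020 to 1084 against 1557 to 1775 CPM in male mice. This did not hold across the list, since 2 of the 4 had positive and 2 negative estimates, with a median log2 fold change of 0.07, and 1 was higher at an unadjusted p under 0.05. The 5 erythroid markers summed to 7527 to 12552 CPM in male saline and 2720 to 6784 CPM in male Corexit 9527 mice, and overlapped in female mice; all 5 had negative estimates and none was at that level.

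In Corexit 9527 against saline over both sexes, 2 of the 3 fibroblast markers were higher and 1 lower at an unadjusted p under 0.05. All 4 neutrophil and all 4 cardiac muscle markers had negative estimates, with medians of -0.46 and -0.44, and 1 of each list was lower at that level. In the same comparison none was at that level among the markers of alveolar type 1 and 2, club, ciliated, endothelial, T, B and plasma cells. In 9527+oil against Corexit 9527, 2 of 3 club, 1 of 3 ciliated, 1 of 3 endothelial, 1 of 4 monocyte, 1 of 4 neutrophil and 1 of 4 cardiac muscle markers were higher at an unadjusted p under 0.05. At that level 1 of 5 alveolar type 2, 1 of 4 alveolar type 1, 1 of 4 B cell and 1 of 3 plasma cell markers were lower, 1 fibroblast marker was higher and 1 lower, and no T cell or erythroid marker was called. The neutrophil and erythroid medians there were 0.84 and 0.72, with all 4 and all 5 estimates positive. The part of these cells in the members' levels was not tested. No share of all genes is given here for calls higher in 9527+oil or lower with Corexit 9527, so those marker counts stand without one. The 3 thymus markers summed to at most 0.65 CPM in any mouse.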

How the data were processed

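Lung RNA of 36 mice was sequenced from a stranded library kit and quantified by the authors with Salmon on GRCm38. The deposited values are estimated counts per gene, summed from transcripts and already whole numbers, in separate tables for the sexes; the sources used here do not give Salmon's strand setting. Of each of these, 4 rows with a shared name were left out, 24 rows bore names turned into dates, and 0 columns of per-sample values were unused. Nothing says more of the replicates than that they are separate mice.

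Genes were filtered with filterByExpr, normalised with TMM and tested with edgeR 4.0.16 (R 4.3.3) by quasi-likelihood, using the mice of the 2 groups compared, with sex as a term over both sexes, and Benjamini-Hochberg adjustment over all genes tested. Log2 CPM used a prior count of 2. Alternatives were DESeq2 1.42.0, limma 3.58.1 voom with quality weights, other scalings and filters, 1 fit of all 6 groups, no sex term, libraries over 20% mitochondrial left out, and each mouse left out. The fits were tested on simulated data, where DESeq2 called more unchanged genes than its threshold allows, so its higher counts are to be read with that in mind. Values after ± are standard errors of the fits across mice; limits given for a count of 0 cover counting error only.

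The members, gene lists and tests were chosen with earlier results of these data known. Named were all 9 members, the 3 genes of each list with the smallest unadjusted p for Corexit 9527, the 5 genes most like the members' mean, Mki67 and Top2a. The promoters shown were chosen after the values were seen.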

Additional observations from a re-analysis of the deposited data

Results flagged for a closer look

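Chek1 in 9527+oil against saline had a male minus female difference of 2.77 on the log2 scale (unadjusted p = 0.00832, adjusted p = 0.948, both from an interaction term in edgeR). It is listed because every male 9527+oil mouse lay above, and every female one below, the saline mice of its sex. Without female saline mouse 3, in which 45.1% of the counts were mitochondrial, the difference was 1.71 ± 0.51 (unadjusted p = 0.00634, adjusted p = 0.732 in edgeR), and the female estimate moved from -1.83 to -0.74.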

How the results depend on the processing

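Counts of members past an adjusted p of 0.05 are given with the share of all genes past it in the same fit. For Corexit 9527 against saline over both sexes the count was 0 (0.0331%), and 6 with DESeq2 (0.834%), 8 without the female libraries over 20% mitochondrial (2.25%), 8 with voom quality weights (5.39%), 6 with all 6 groups in one fit (0.689%), and 0 to 1 with 1 mouse left out (at most 0.0588%). In male mice it was 0 (0.114%), and 8 with DESeq2 (3.93%), 2 with no filter on low counts (0.385%), 3 with at least 10 counts in every mouse (0.635%), 2 with voom (0.744%), 8 with all groups in one fit (1.83%), and 0 to 8 with 1 mouse left out (at most 1.39%). In male mice DESeq2 gave 2 for Corexit 9500 (0.324%) and 2 for oil (1.25%), against 0. For 9527+oil against Corexit 9527 it was 5 (0.579%), and 9 with DESeq2 (4.12%), 8 without the female libraries over 20% mitochondrial (6.82%), 0 in male mice alone (0.0134%), 0 in female mice alone (0%), and 0 to 8 with 1 mouse left out (at most 6.82%). The count of 8 came from the same fit in both cases, that without female Corexit 9527 mouse 11. The causes were not tested, beyond the smaller samples of the single-sex fits. The Chek1 estimate for Corexit 9500 turned from 0.27 to -0.11 with no sex term, and that of Chek2 for oil in male mice from 0.05 to -0.16 without male saline mouse 1 (-0.16 to 0.19 over the mice left out). The members' median changed sign in 26 of 358 alternatives, 15 of them in differences between the sexes and 10 in female mice. Ticrr and Chek1 had the lowest median counts of the members, at 42 and 54.5 per library. No paired analysis was possible because the treatment groups of a sex share no mouse numbers, and the same number in the other sex is another mouse.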
